A study of Mus musculus with 9 samples.

Results

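The type I interferon response genes followed here are 34 named genes: sensors of viral nucleic acid, the receptor of type I interferons, the transcription factors below it and the antiviral proteins they switch on. They were taken as a list of symbols, matched through the GENCODE M21 annotation to the Ensembl identifiers of the deposited count table, and all 34 were found among its 47937 identifiers. The study asked how TEPP-46, a small molecule that activates the glycolytic enzyme pyruvate kinase M2, changes transcripts of mouse T cells. All libraries came from C57BL/6 spleens, from CD4+ T cells selected for CD62L, a homing receptor of naive cells, and no genetic alteration is named in the labels. The 3 groups held 3 RNA-seq libraries each, with the replicate numbers 1, 4 and 5, and values below are given in that order. Resting cells received no stimulus. Control cells (Th0_Ctrl) were kept with the solvent DMSO for 15 min and then activated on plate-bound antibodies against CD3 and CD28. TEPP-46 cells (Th0_TEPP) were treated alike with TEPP-46 at 50 to 100 µM in place of DMSO, a range that the labels do not resolve by library. No label states how long activation lasted or whether resting cells spent that time in culture.

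Type I interferons bind a receptor made of IFNAR1 and IFNAR2, whose kinases phosphorylate STAT2 and related factors. STAT2 works with IRF9 in a complex that binds the interferon-stimulated response element, a promoter sequence built from repeated GAAA units, and switches on antiviral genes. Many of those genes encode the sensors and factors that start the pathway, so it can amplify itself. In T cells, a low tonic signal through this receptor keeps many of these genes expressed at rest, and strong interferon signals can slow division.

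Totals ran from 2397304 counts in TEPP-46 replicate 4 to 5030643 in resting replicate 1. Of the 34 members, 33 passed the filter on low counts among 12536 genes tested, and Oas2 did not. No member passed it through 1 group alone, although Ifit1bl1 passed in no control library and Mx2 in no resting library. Levels are CPM (counts scaled to a common library total) on TMM-scaled library sizes, so they are shares of a library, and fewer cells of a type cannot be told apart from less RNA per cell. Differences are log2 fold changes from edgeR ± SE. As edgeR prints no SE, it was derived as the absolute log2 fold change over the square root of the F statistic of the test. A gene was called when its Benjamini-Hochberg adjusted p over all genes tested was below 0.05. No label says that replicates came from separate animals, and the p-values rest on a spread between samples that may be purely technical. Several libraries stood apart. Resting replicate 1 was the lowest resting library in 27 of the 33 members (81.82%, against 41.44% of all genes), and resting replicate 4 the highest in 29 (87.88%, against 30.14%). TEPP-46 replicate 1 was the highest TEPP-46 library in 23 of 33 (69.7%, against 38.27%). Control replicate 1 was the highest control library in 22 (66.67%, against 36.64%), and control replicate 4 the lowest in 20 (60.61%, against 30.98%). Malat1, a nuclear RNA, was at 12292 and 12824 CPM in TEPP-46 replicates 4 and 5, against 2532 CPM in replicate 1 and 2067 to 4120 CPM in control cells.

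Activated control cells had lower levels of Ddx58, Irf9, Irf1, Ifit1bl1, Ifit2, Ifit3 and Rtp4 than resting cells, and TEPP-46 cells had higher levels of these genes and of both receptor chains than control cells. From resting to control cells, 8 members fell, the genes just named and Oasl2, where 15.8% of all genes tested fell. Stat2 and Apobec3 rose, that is 2 members, where 15.5% of all genes rose. With TEPP-46 against control, 13 members rose, where 9.72% of all genes rose: Ddx58, Zbp1, Trim25, Ifnar1, Ifnar2, Irf9, Irf1, Ifit1bl1, Ifit2, Ifit3, Rtp4, Parp14 and Apobec3. By edgeR 0 members were called lower, where 6.43% of all genes were; 1 had an unadjusted p below 0.05, Oasl1, which DESeq2 called and limma-voom did not. The median log2 fold change of the 33 members was -0.27 on activation and 0.90 with TEPP-46, beside -0.04 and 0.04 for all genes. The 12 T cell markers tested had medians of -0.58 and 0.89. Both comparisons use the same 3 control libraries, so the low control values enter both.

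Some counts moved when single libraries were left out. Without control replicate 1, 4 or 5, the members higher with TEPP-46 numbered 8, 7 and 6, beside 592, 535 and 395 genes called in all in place of 2025. Without TEPP-46 replicate 1 they numbered 12, and 4 members were then lower (Bst2, Isg15, Mx2 and Oasl1), with 4407 genes called. Without TEPP-46 replicate 4 they numbered 12, with 1776 genes called, and without resting replicate 1 they numbered 15, with 2373. On activation, 10 members were lower without resting replicate 1, with 3358 genes called in place of 3914. These 10 include Oas2, which was not tested in the original fit. It passed the filter in this smaller fit through resting libraries alone.

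**Figure D1:**
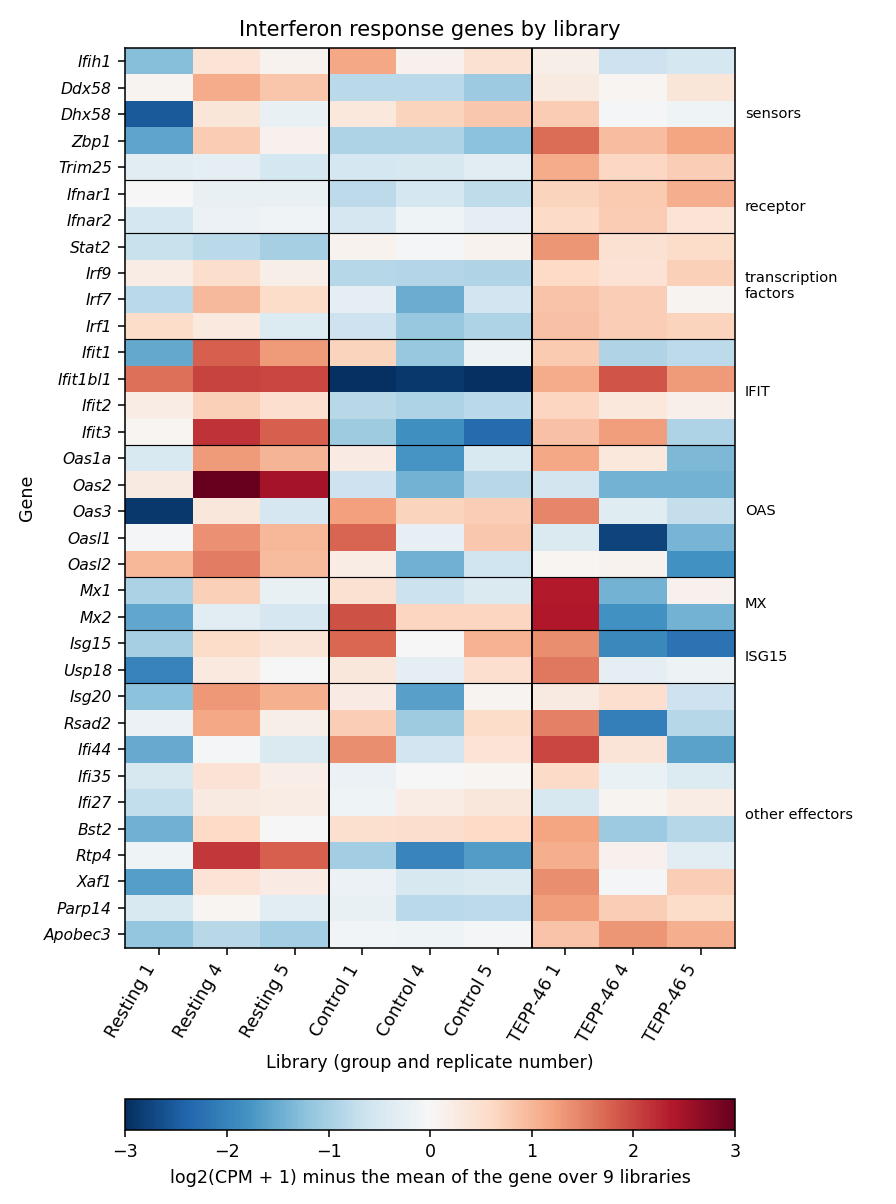
Each row is 1 of the 34 members and each column 1 of the 9 libraries; colour is log2(CPM + 1) minus the gene's mean over the 9 libraries, with rows grouped by role. The receptor, Irf9, Irf1 and Ifit1bl1 rows are uniform within each activated group, whereas Oas3, Mx1, Mx2, Isg15 and Usp18 show TEPP-46 replicate 1 (first TEPP-46 column) apart from replicates 4 and 5.

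Sensors of viral nucleic acid split into 3 that rose with TEPP-46 and 2 that were not called. Ddx58 encodes RIG-I, a cytosolic sensor of viral RNA. It stood at 50.5, 105 and 86.1 CPM in resting, 26.7, 26.6 and 21.9 CPM in control and 57.2, 49.6 and 61.1 CPM in TEPP-46 libraries. Every control library lay below every library of the other groups, which overlapped each other. Ddx58 fell on activation by 1.68 ± 0.28 on the log2 scale (adjusted p = 0.00211) and rose with TEPP-46 by 1.16 ± 0.28 (adjusted p = 0.0225). The rise was not called without any 1 of the control libraries or without TEPP-46 replicate 5, with adjusted p up to 0.101.

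Trim25 encodes a ubiquitin ligase that activates RIG-I. Its levels were 102, 105 and 87.2 CPM in resting, 87.3, 90.0 and 98.8 CPM in control and 277, 194 and 211 CPM in TEPP-46 libraries. Resting and control libraries overlapped, and all TEPP-46 libraries lay above both. The log2 difference was 1.30 ± 0.20 from control (adjusted p = 0.00437) and 1.22 ± 0.20 from resting cells (adjusted p = 0.00632), and both calls held under all 18 alternative settings. Zbp1, which encodes a sensor of Z-form nucleic acid, was at 33.4, 173 and 112 CPM in resting, 53.2, 53.0 and 42.6 CPM in control and 330, 194 and 234 CPM in TEPP-46 libraries. The TEPP-46 libraries lay above all others, and resting replicate 1 lay below the controls while the other two lay above them. Zbp1 rose with TEPP-46 by 2.35 ± 0.48 (adjusted p = 0.0126), a call lost without any 1 control library (adjusted p up to 0.0679).

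The other sensors, Ifih1 (MDA5) and Dhx58 (LGP2), were not called in any comparison. Ifih1 ranged from 35.0 to 71.9 CPM in control and from 20.2 to 36.0 CPM in TEPP-46 libraries, a log2 difference of -0.94 ± 0.45 (adjusted p = 0.168). Dhx58 ranged from 30.4 to 43.4 and from 22 to 41.8 CPM, a difference of -0.37 ± 0.58 (adjusted p = 0.682).

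Both chains of the type I interferon receptor rose with TEPP-46 and were also above the resting level. Ifnar1 was at 303, 257 and 257 CPM in resting, 174, 209 and 178 CPM in control and 477, 525 and 643 CPM in TEPP-46 libraries. No library of 1 group overlapped another group, with control lowest and TEPP-46 highest. The rise over control was 1.55 ± 0.20 on the log2 scale, or 2.93-fold (adjusted p = 0.00233), and held under all 18 alternatives. Against resting cells it was 1.01 ± 0.20 (adjusted p = 0.0125), and the call was lost in 3 alternatives, with adjusted p up to 0.0614. Between resting and control cells, Ifnar1 did not pass the threshold (-0.54 ± 0.20, adjusted p = 0.0572), although 5 of 18 alternatives called the fall, among them DESeq2 (adjusted p = 0.0275) and limma-voom (adjusted p = 0.0463). Ifnar2 was at 42.0, 54.4 and 56.7 CPM in resting, 43.2, 55.7 and 49.9 CPM in control and 91.6, 106 and 81.5 CPM in TEPP-46 libraries. Resting and control libraries overlapped, and each TEPP-46 library exceeded all of them. Its rise over control was 0.90 ± 0.21 (adjusted p = 0.0209), not called without any 1 control library (adjusted p up to 0.095). Over resting cells the rise was 0.86 ± 0.21 (adjusted p = 0.0317), a call lost in 10 of 18 alternatives (adjusted p up to 0.0949). Ifnar2 shares 9.5% of its exon bases with the overlapping gene Gm21970, which had 0 counts.

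Among the transcription factors, Irf9 and Irf1 fell on activation and rose with TEPP-46, whereas Stat2 rose on activation. Irf9 encodes the DNA-binding subunit of the STAT complex. It was at 152, 189 and 147 CPM in resting, 71.1, 70.6 and 68.8 CPM in control and 199, 175 and 216 CPM in TEPP-46 libraries. The control libraries lay close together and below all others, and resting and TEPP-46 libraries overlapped. The log2 difference was -1.21 ± 0.19 on activation (adjusted p = 0.00156) and 1.49 ± 0.19 with TEPP-46 (adjusted p = 0.00233), and both calls held under all 18 alternatives.

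Irf1 encodes an interferon-induced activator that also acts downstream of interferon gamma. Its levels were 382, 315 and 195 CPM in resting, 167, 116 and 135 CPM in control and 474, 431 and 412 CPM in TEPP-46 libraries. The 3 groups did not overlap, although resting replicate 5 lay close to control replicate 1. Irf1 fell on activation by 1.09 ± 0.26 (adjusted p = 0.0108), a call lost without control replicate 4 or 5 (adjusted p up to 0.0562). With TEPP-46 it rose by 1.65 ± 0.26 (adjusted p = 0.00516), in all 18 alternatives.

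Stat2 encodes the STAT subunit bound by IRF9. It was at 79.3, 71.3 and 62.7 CPM in resting, 136, 121 and 136 CPM in control and 317, 173 and 185 CPM in TEPP-46 libraries. The groups did not overlap, and TEPP-46 replicate 1 stood far above the other TEPP-46 libraries. The rise on activation was 0.88 ± 0.25 (adjusted p = 0.0234), lost in 5 of 18 alternatives, each without 1 library (adjusted p up to 0.0871). The difference between TEPP-46 and control cells missed the threshold (0.78 ± 0.25, adjusted p = 0.056) and was called with DESeq2 (adjusted p = 0.0332), without TEPP-46 replicate 4 (0.0346) and without that library and resting replicate 1 together (0.0252). By contrast, TEPP-46 cells exceeded resting cells by 1.66 ± 0.25 (adjusted p = 0.00486).

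Irf7, which encodes the main inducer of interferon alpha genes, was at 46.5, 162 and 122 CPM in resting, 67.0, 28.6 and 55.2 CPM in control and 150, 139 and 87.7 CPM in TEPP-46 libraries. Each TEPP-46 library lay above each control library, and resting libraries overlapped both groups, with replicate 1 within the control range and replicates 4 and 5 near or within the TEPP-46 range. Neither the activation difference (-1.13 ± 0.45, adjusted p = 0.0786) nor the TEPP-46 difference (1.32 ± 0.45, adjusted p = 0.0694) was called. DESeq2 called the latter (adjusted p = 0.0301). Without resting replicate 1, both were called, with log2 differences of -1.49 (adjusted p = 0.0176) and 1.31 (adjusted p = 0.0287).

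**Figure D2:**
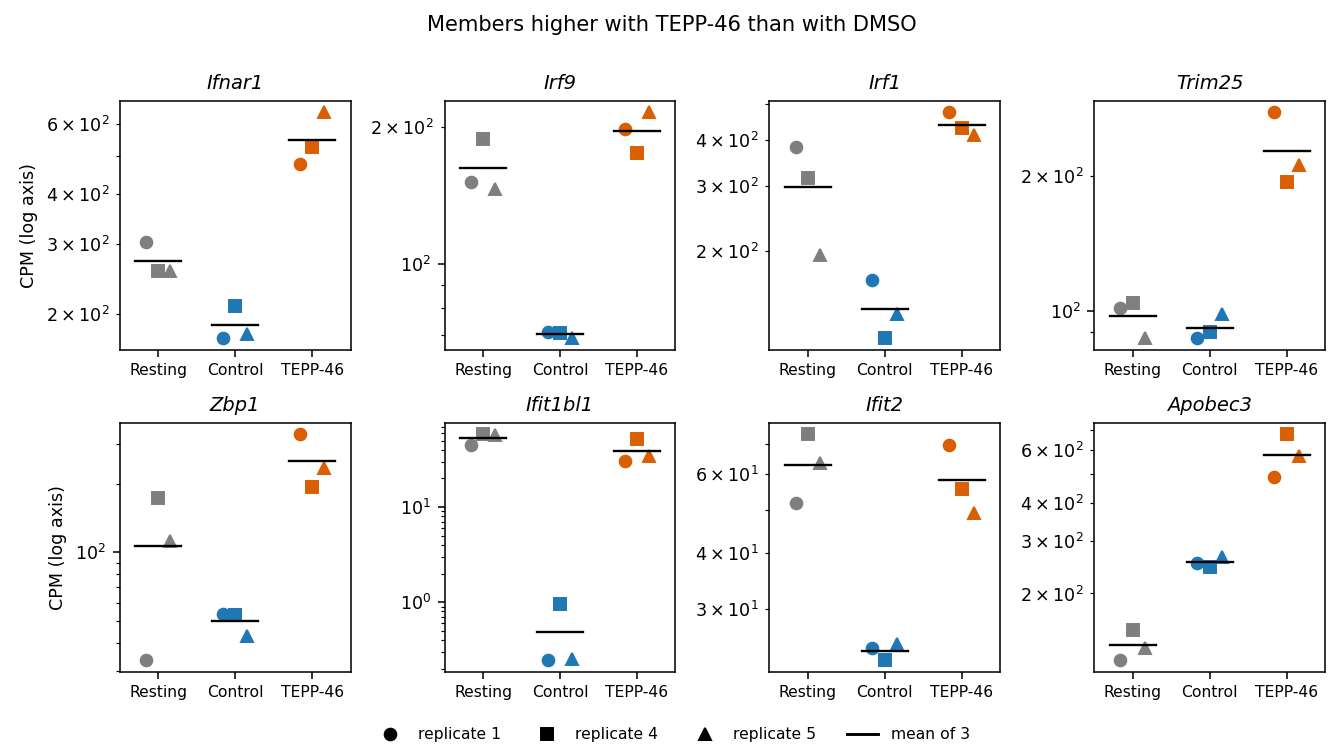
CPM on a log axis in each library for 8 of the members that rose with TEPP-46, 1 panel a gene; symbols mark the replicate number and lines the group mean of 3. In each panel the 3 TEPP-46 libraries lie above the 3 control libraries, and only in Ifit1bl1 and Ifit2 do the resting libraries have the highest mean.

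The IFIT genes, whose products bind viral RNA and block its translation, hold the largest fold changes of the list. They lie together on chromosome 19 (GRCm38), with Ifit2 at chr19:34550694-34576419, Ifit3 at chr19:34583531-34588731 and Ifit1 at chr19:34640871-34650009 on the plus strand. Ifit1bl1, a relative of Ifit1, lies between Ifit3 and Ifit1 at chr19:34592891-34601956 on the minus strand. The 170 bases upstream of the RefSeq start sites (GRCm38.p6) of 5 members are printed here because they show the response element core, GAAANNGAAA on either strand (TTTCNNTTTC when read from the other), which stands in capitals. RefSeq gives Ifit1bl1 a pair of start sites, whose windows carry the same 10-base match at different distances. In GENCODE M21, the run for start 1 lies in an intron of Ifit1bl1, that of Ifit1 reaches an exon of Ifit1bl2 on the other strand, and that of Apobec3 lies in an exon of a non-coding Apobec3 transcript.
Ifit1bl1, start 1, chr19:34599428-34599597, minus strand: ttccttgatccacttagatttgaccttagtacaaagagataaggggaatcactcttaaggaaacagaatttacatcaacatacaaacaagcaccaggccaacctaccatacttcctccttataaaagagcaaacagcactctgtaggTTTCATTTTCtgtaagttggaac
Ifit1bl1, start 2, chr19:34601969-34602138, minus strand: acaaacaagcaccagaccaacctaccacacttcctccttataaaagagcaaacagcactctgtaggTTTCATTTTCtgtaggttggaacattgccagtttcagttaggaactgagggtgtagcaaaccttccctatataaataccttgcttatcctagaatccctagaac
Ifit1, chr19:34640719-34640888, plus strand: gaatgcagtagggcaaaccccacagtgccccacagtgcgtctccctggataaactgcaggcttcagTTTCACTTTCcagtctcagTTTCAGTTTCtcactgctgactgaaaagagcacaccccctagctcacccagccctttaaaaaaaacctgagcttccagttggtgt
Ifit3, chr19:34583359-34583528, plus strand: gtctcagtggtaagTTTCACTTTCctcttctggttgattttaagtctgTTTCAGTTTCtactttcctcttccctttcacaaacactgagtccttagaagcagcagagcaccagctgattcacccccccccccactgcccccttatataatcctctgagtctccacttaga
Isg15, chr4:156200819-156200988, minus strand: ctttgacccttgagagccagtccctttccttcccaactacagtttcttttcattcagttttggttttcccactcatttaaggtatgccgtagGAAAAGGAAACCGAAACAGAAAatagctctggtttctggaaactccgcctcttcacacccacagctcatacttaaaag
Apobec3, chr15:79892238-79892407, plus strand: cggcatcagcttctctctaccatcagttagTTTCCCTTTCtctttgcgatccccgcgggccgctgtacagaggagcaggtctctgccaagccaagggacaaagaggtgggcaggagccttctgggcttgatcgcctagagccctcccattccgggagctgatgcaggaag

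Ifit1bl1 was nearly absent from control cells. It was at 44.7, 58.1 and 57.1 CPM in resting, 0.245, 0.96 and 0.252 CPM in control and 30.5, 52.5 and 34.3 CPM in TEPP-46 libraries. The control values rest on 1, 4 and 1 counts, and the resting and TEPP-46 libraries overlapped far above them. The fitted log2 difference was -6.67 ± 0.47 on activation (adjusted p = 7.6e-05) and 6.22 ± 0.47 with TEPP-46 (adjusted p = 0.000293), and both calls held under all 18 alternatives. With so few control counts, the size of both differences depends on the prior count of the fit. TEPP-46 and resting cells differed by -0.45 ± 0.32 (adjusted p = 0.399). Of the 50-base words in Ifit1bl1 transcripts, 6.4% also occur in Ifit1bl2, so a small part of its counts could be misassigned.

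Ifit2 was at 51.7, 73.7 and 63.6 CPM in resting, 24.5, 23.0 and 25 CPM in control and 69.9, 55.5 and 49.2 CPM in TEPP-46 libraries. The pattern was that of Irf9, with control libraries below all others and the remaining groups overlapping. Ifit2 fell by 1.38 ± 0.23 on activation (adjusted p = 0.0021) and rose by 1.27 ± 0.23 with TEPP-46 (adjusted p = 0.00842), the rise missing the threshold without control replicate 5 (adjusted p = 0.0503). Ifit3 was at 8.05, 38.0 and 29.4 CPM in resting, 3.19, 1.44 and 0.756 CPM in control and 15.1, 19.7 and 3.56 CPM in TEPP-46 libraries. The groups of activated cells did not overlap, but TEPP-46 replicate 5 lay only just above control replicate 1. Its fall on activation was 3.78 ± 0.80 (adjusted p = 0.0062), in all 18 alternatives, and its rise with TEPP-46 was 2.80 ± 0.79 (adjusted p = 0.0389), lost in 9 of 18 (adjusted p up to 0.143). Ifit3 counts are uncertain, since 51.2% of its 50-base words are shared with Ifit3b.

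Ifit1 itself was not called in any comparison. It was at 9.45, 104 and 73.1 CPM in resting, 47.3, 12.7 and 26.5 CPM in control and 51.2, 15.1 and 16.5 CPM in TEPP-46 libraries, and all 3 groups overlapped. The TEPP-46 difference was -0.05 ± 0.78 (adjusted p = 0.971), an SE several times that of Ifit2.

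The OAS genes encode enzymes that make short oligoadenylates, which activate an RNA-cutting enzyme. With TEPP-46, 0 of the 4 tested were called higher by edgeR, DESeq2 or limma-voom, and 0 had an unadjusted p below 0.05 in that direction. Oasl2 was at 17.3, 25.6 and 16.7 CPM in resting, 9.81, 2.4 and 5.04 CPM in control and 8.53, 8.82 and 1.62 CPM in TEPP-46 libraries. Resting libraries lay above all activated ones, and control and TEPP-46 libraries overlapped. Oasl2 fell on activation by 1.78 ± 0.61 (adjusted p = 0.0478), a call lost in 8 of 18 alternatives (adjusted p up to 0.155), and with TEPP-46 it differed from control by 0.13 ± 0.63 (adjusted p = 0.903).

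Oas2, the member below the filter, had 186 counts over the resting libraries, 5 over the control and 3 over the TEPP-46 libraries. The resting libraries differed widely, with 11, 110 and 65 counts (2.21, 29.0 and 14.1 CPM). Scaled to library size, the resting group exceeded control 33.9-fold (95% counting interval 14.3 to 106) and TEPP-46 42.2-fold (14.2 to 206), intervals that cover counting error only. It passed the filter's level in 2 resting libraries and in no other, so no test of it is given.

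Oasl1 encodes an OAS-like protein that in mice represses translation of Irf7. It was at 5.63, 16.9 and 12.8 CPM in resting, 22.3, 4.80 and 11.1 CPM in control and 4.13, 0 and 1.62 CPM in TEPP-46 libraries, where 3 counts correspond to 1.26 CPM in replicate 4. All TEPP-46 libraries lay below all control libraries. The log2 difference of -2.62 ± 0.86 missed the threshold (adjusted p = 0.0611), and it was called with DESeq2 (adjusted p = 0.00859), without TEPP-46 replicate 1 (adjusted p = 0.0181), with total-count scaling (adjusted p = 0.0487) and with no filter on low counts (adjusted p = 0.00922). Oas1a and Oas3 were not called, with ranges of 0.72 to 5.89 and 72.7 to 107 CPM in control and of 1.29 to 12.1 and 27.2 to 126 CPM in TEPP-46 libraries. Oas1a shares 57.6% of its 50-base words with Oas1g, so its counts are uncertain.

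The MX and ISG15 genes differed more between TEPP-46 replicates than between groups. Isg15 encodes a ubiquitin-like protein that is attached to other proteins and is among the genes most readily induced by interferon. It was at 6.64, 21.4 and 18.8 CPM in resting, 49.3, 14.4 and 30.5 CPM in control and 39.1, 2.94 and 2.26 CPM in TEPP-46 libraries. TEPP-46 replicate 1 lay within the control range, and replicates 4 and 5 lay below every other library. The log2 difference from control was -1.05 ± 0.90 (adjusted p = 0.433), and -3.60 without TEPP-46 replicate 1 (adjusted p = 0.00501). Usp18, which encodes the protease that removes ISG15 and dampens the receptor, was at 79.5, 50.9 and 88.2 CPM in control and 188, 51.3 and 56.3 CPM in TEPP-46 libraries, a difference of 0.44 ± 0.60 (adjusted p = 0.635). For Usp18, replicate 1 lay above the control range and replicates 4 and 5 within it.

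Mx1 and Mx2 encode GTPases that block viral replication, and C57BL/6 mice carry inactive alleles of both. Mx2 was at 12.3, 4.56 and 4.54 CPM in control and 17.6, 0 and 0.324 CPM in TEPP-46 libraries, and Mx1 at 2.70, 0.72 and 1.01 and at 12.9, 0 and 1.94 CPM. Replicate 1 was thus the highest of all libraries for both genes, while replicate 4 had no count. Neither was called (adjusted p = 0.921 for Mx2 and 0.297 for Mx1). Of the 8 tested OAS, MX and ISG15 members, 7 had their highest TEPP-46 value in replicate 1 (87.5%), and Oasl2 was the exception. Control replicate 1 was likewise the highest control library in 7 of the 8, and resting replicate 4 the highest resting library in all 8. TEPP-46 replicate 1 also differed from replicates 4 and 5 in its Malat1 level, given above, and in the summed level of 24 ribosomal protein genes, at 20762 against 5167 and 10137 CPM. A check list of 9 genes that respond to activation summed to 9298, 3911 and 5551 CPM in the TEPP-46 libraries, 8133 to 10005 CPM in control and 4413 to 5216 CPM in resting libraries, and 4 of the 9 were called lower with TEPP-46 and 2 higher. The part of RNA quality or of the degree of activation in the members' values was not tested.

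**Figure D3:**
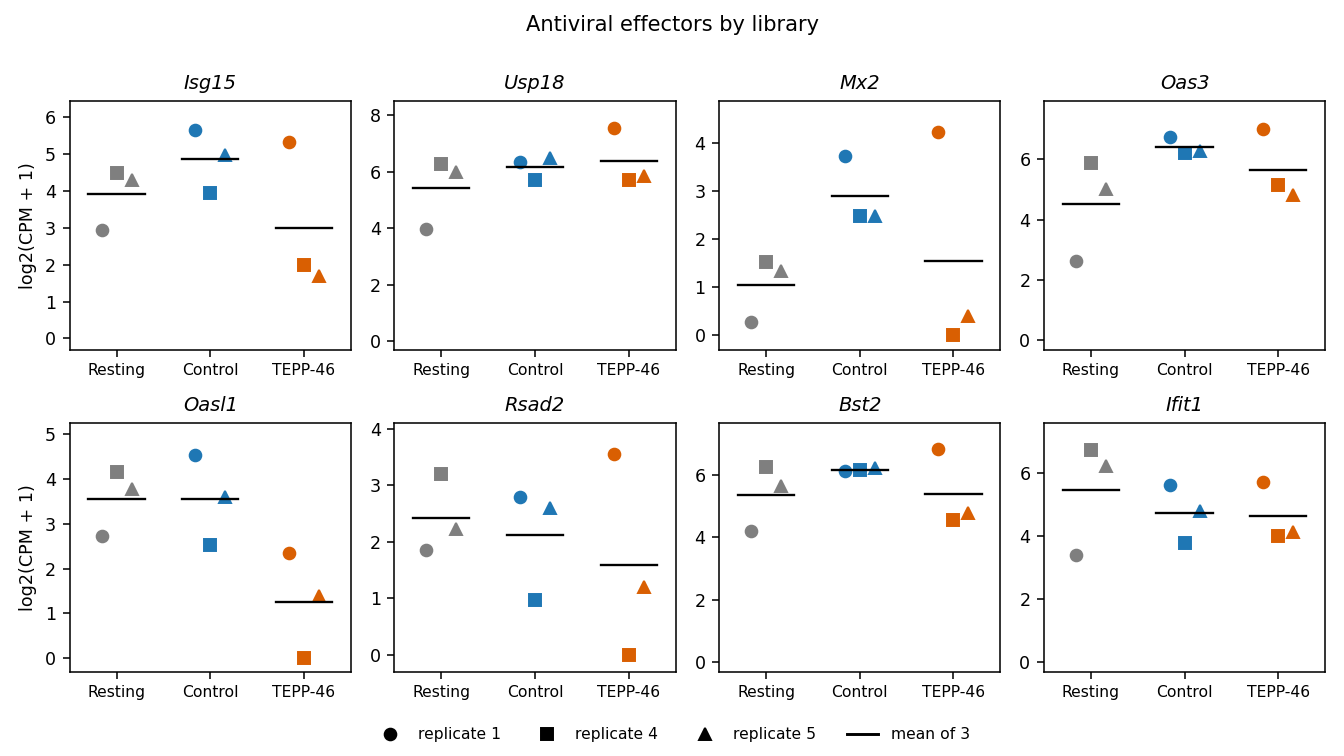
log2(CPM + 1) by group for 8 antiviral effectors that were not called with TEPP-46, with symbols for the replicate number and a line at the mean of 3. TEPP-46 replicate 1 (circle) lies above replicates 4 and 5 in all 8 panels, and in Oasl1 all 3 TEPP-46 libraries lie below the control libraries.

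The remaining effectors held 3 rises with TEPP-46 among 10 members. Apobec3 encodes a cytidine deaminase that restricts retroviruses, and the window of the first of its RefSeq start sites is printed above; the 170 bases before start 2, at chr15:79894853-79895022, hold no match. It was at 120, 152 and 132 CPM in resting, 253, 246 and 265 CPM in control and 489, 678 and 575 CPM in TEPP-46 libraries. The groups rose in steps without overlap. The log2 difference was 0.92 ± 0.20 on activation (adjusted p = 0.00645), 1.19 ± 0.20 from control to TEPP-46 (adjusted p = 0.00574) and 2.11 ± 0.20 from resting to TEPP-46 (adjusted p = 0.000689). All of these calls held under the 18 alternatives, and Apobec3 was the only member called in every comparison. Its exons overlap those of the antisense-annotated D730005E14Rik, which had 0 counts, and 1.1% of its exon bases overlap Cbx7 on the other strand.

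Parp14, which encodes an ADP-ribosyltransferase, was at 39.4, 56.8 and 43.5 CPM in resting, 46.8, 31.0 and 31.5 CPM in control and 131, 92 and 80.6 CPM in TEPP-46 libraries. Only the TEPP-46 libraries stood apart from the rest. Parp14 rose over control by 1.47 ± 0.27 (adjusted p = 0.00881), a call lost without control replicate 4 or 5 (adjusted p up to 0.0551), and over resting cells by 1.12 ± 0.27 (adjusted p = 0.0289), lost in 7 of 18 alternatives (adjusted p up to 0.11). Rtp4, which encodes an interferon-induced receptor transporter protein, was at 12.9, 65.0 and 51.3 CPM in resting, 6.38, 2.88 and 3.78 CPM in control and 31.4, 15.5 and 11.3 CPM in TEPP-46 libraries. Control libraries lay below all others, and resting replicate 1 fell among the TEPP-46 libraries. Its fall on activation was 3.30 ± 0.64 (adjusted p = 0.00423), in all 18 alternatives, and its rise with TEPP-46 was 2.16 ± 0.63 (adjusted p = 0.0416), lost in 10 of them (adjusted p up to 0.141).

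Xaf1, which encodes an antagonist of the apoptosis inhibitor XIAP, was at 28.9, 23.0 and 23.9 CPM in control and 87.2, 31.9 and 55.3 CPM in TEPP-46 libraries. The groups did not overlap, yet the difference of 1.2 ± 0.51 was not called (adjusted p = 0.125), except without resting replicate 1 (adjusted p = 0.0406), alone or with TEPP-46 replicate 4 (adjusted p = 0.00563). Bst2, which encodes the protein tetherin that holds budding viruses on the cell, was at 68.2, 70.6 and 74.1 CPM in control and 113, 22.3 and 26.5 CPM in TEPP-46 libraries. As for Isg15, TEPP-46 replicates 4 and 5 lay below the control range, but for Bst2 replicate 1 lay above that range. The difference was -0.39 ± 0.62 (adjusted p = 0.685), or -1.54 without replicate 1 (adjusted p = 0.0354). Ifi35 and Ifi27 were close to equal in the group means, at 112 ± 9.77 and 118 ± 45.5 CPM and at 89.8 ± 14.5 and 78.9 ± 19.2 CPM in control and TEPP-46 cells (SD, n = 3). Of the exon bases of Ifi35, 16.8% overlap Gm11626 on the other strand, and the counts of both cannot be separated without the strand of counting. Isg20, Rsad2 and Ifi44 were low and not called, with control means of 7.92 ± 4.82, 3.96 ± 2.63 and 5.18 ± 4.02 CPM.

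**Figure D4:**
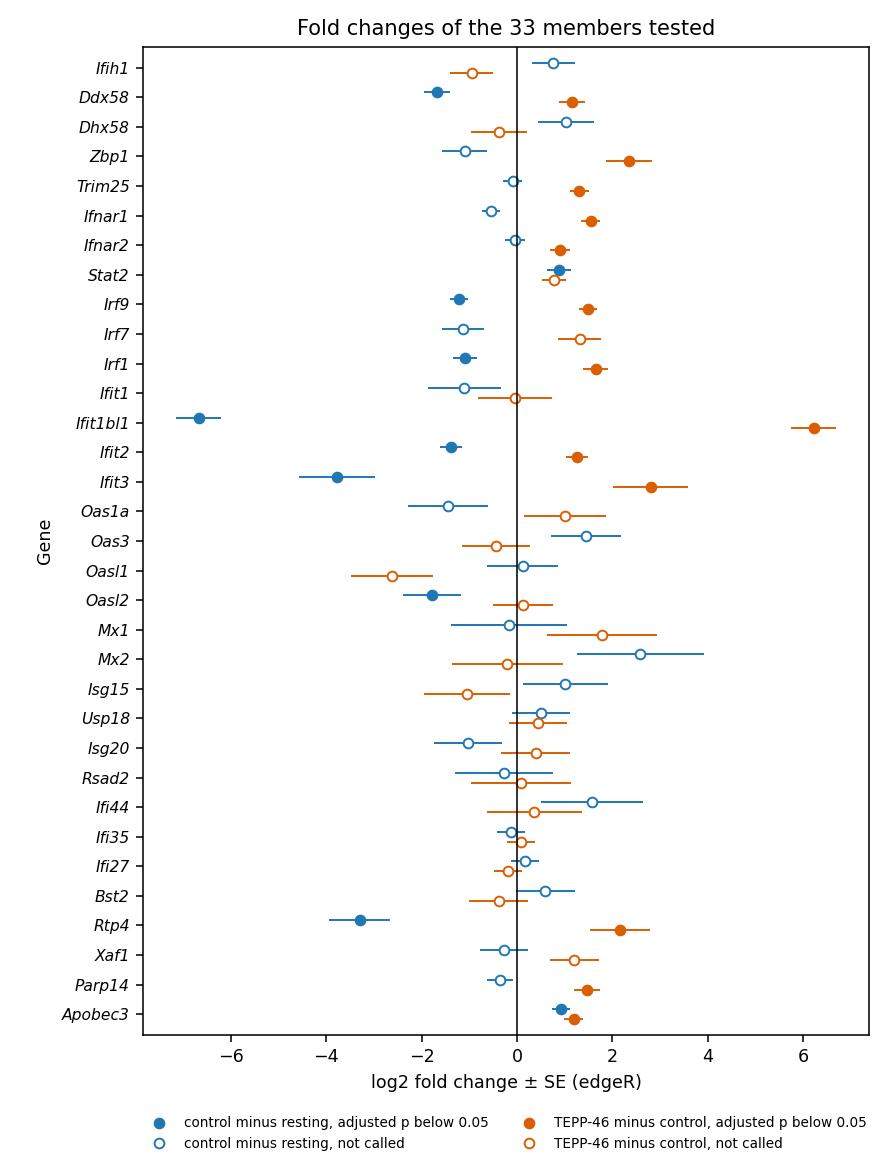
log2 fold change from edgeR ± SE for the 33 members tested, control minus resting in blue and TEPP-46 minus control in orange. Filled points mark adjusted p below 0.05. Ifit1bl1 has the largest difference in both comparisons (-6.67 and 6.22), and bars are widest for Mx1, Mx2, Rsad2 and Ifi44.

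Set against resting cells, TEPP-46 cells held higher levels of the receptor, Stat2, Trim25, Parp14 and Apobec3, and levels of Irf9, Ddx58 and Ifit2 that were not called different. In the comparison of TEPP-46 with resting libraries, 6 members rose, where 6.37% of all genes rose: Trim25, Ifnar1, Ifnar2, Stat2, Parp14 and Apobec3. By edgeR 0 members fell, where 3.92% of all genes fell; 2 had an unadjusted p below 0.05, Oasl1 and Oasl2, of which DESeq2 called Oasl1 and limma-voom neither. Without TEPP-46 replicate 1, 3 were lower in edgeR. They were Isg15 with a log2 difference of -2.59 (adjusted p = 0.0412), Oasl1 with -3.68 (adjusted p = 0.0403) and Oas2, which the original fit did not test. The median log2 fold change of the members was 0.20, beside 0.02 for all genes. Of the 8 members that fell on activation, Ddx58, Irf9, Irf1, Ifit1bl1, Ifit2, Ifit3 and Rtp4 rose with TEPP-46, and their differences from resting cells ran from -1.14 for Rtp4 to 0.56 for Irf1, none of them called. These comparisons share libraries, so their values are set side by side and not correlated.

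Levels can be compared between genes only per length. Per kilobase of exon, the mean level in control cells was highest for Bst2 (78.6 CPM per kb), Ifi35 (64.7) and Ifi27 (61.2), and Ifit1bl1 was among the lowest (0.215). In TEPP-46 cells it was highest for Irf1 (110 CPM per kb), Ifnar1 (92.3) and Zbp1 (71.6), while Mx1 (1.31), Rsad2 (0.924), Oasl1 (0.734) and Oas2 (0.0618) were among the lowest.

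Promoter windows of 300 bases, from 250 before to 50 after a RefSeq start, were found for 25 of the 34 members, the others being Zbp1, Rtp4, Parp14, Dhx58, Oas2, Mx1, Mx2, Usp18 and Ifi27. The element core GAAANNGAAA was present on either strand in a window of 12 of the 25 (48%), against 3.44% of 32851 windows and 3.99% of 27025 genes. The longer GAAANNGAAAC (GTTTCNNTTTC on the other strand), which contains the core, was in 10 of 25, against 0.819% of windows and 0.944% of genes. By calls, 4 of the 10 members that rose with TEPP-46 and have a window held the core (Ddx58, Ifit1bl1, Ifit3 and Apobec3), and so did 8 of the other 15. Thus Isg15 and Ifit1, printed above with 3 overlapping and 2 separate matches, were not called, and Irf9, Irf1, Ifnar1, Ifnar2, Trim25 and Ifit2 rose with no match in these windows. A palindromic site for STAT dimers, TTCNNNGAA, was in 8 of 25, against 8.3% of windows and 9.55% of genes. Irf1, Ifnar1, Ifnar2 and Ifit2 were among the 8, and the site does not contain the element core. A match describes letters in a window, not a bound site, and no match says only that the letters are not in that window.

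**Figure D5:**
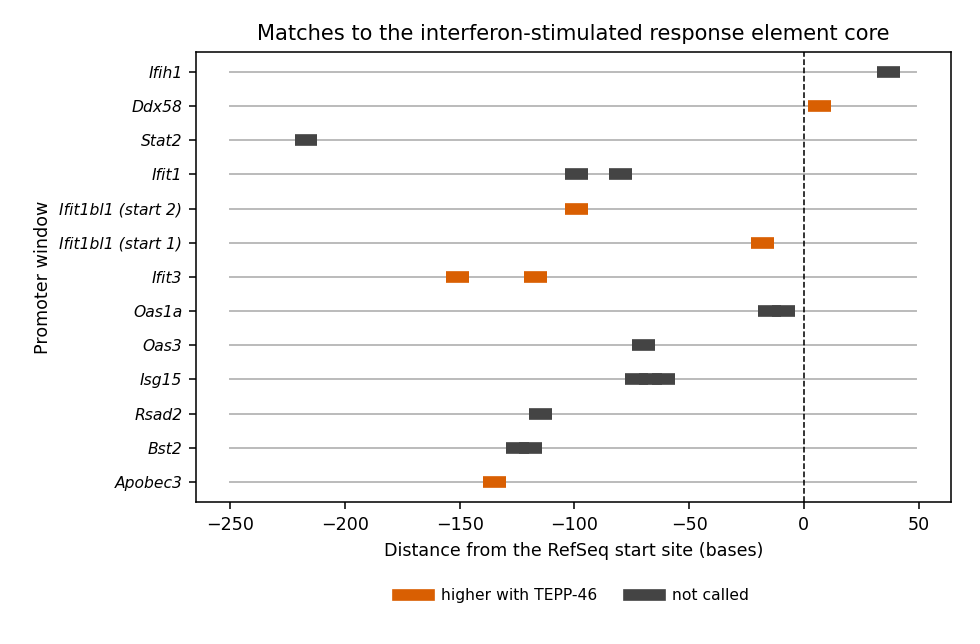
Positions of matches to the response element core in the promoter windows of the 12 members that hold one, as distance in bases from the RefSeq start site (dashed line); orange marks members that rose with TEPP-46 and dark grey members not called. Matches lie on both sides of the start, and members of both kinds carry them.

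Further genes of the pathway were also called, more often higher than lower with TEPP-46. From a list of 119 further interferon pathway genes, 87 were tested, and 10 rose and 25 fell on activation, where 15.5% and 15.8% of all genes did. With TEPP-46, 30 rose and 1 fell, where 9.72% and 6.43% of all genes did, and the median log2 fold change was 0.97. Against resting cells 23 rose and 3 fell, where 6.37% and 3.92% of all genes did. The receptor-bound kinase gene Jak1 fell on activation by 1.92 ± 0.25 (adjusted p = 0.000819) and rose with TEPP-46 by 1.67 ± 0.25 (adjusted p = 0.00384). Stat4 also rose with TEPP-46 (1.18 ± 0.29, adjusted p = 0.0242).

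The gamma interferon receptor chain Ifngr1 rose from 103, 212 and 140 CPM to 921, 1426 and 2257 CPM (3.34 ± 0.71, adjusted p = 0.0139), and Il10rb, shared by lambda interferon and interleukin-10 receptors, rose by 0.70 ± 0.21 (adjusted p = 0.0466). Among 13 sensing genes tested, 5 rose. Samhd1, which encodes an enzyme that depletes nucleotides and restricts retroviruses, was at 554, 776 and 729 CPM in control and 2666, 2822 and 3032 CPM in TEPP-46 libraries (2.05 ± 0.22, adjusted p = 0.0013). Adar, an editor of double-stranded RNA (adjusted p = 0.00689), Ikbke, a kinase that activates interferon regulatory factors (1.23 ± 0.25), and Myd88, an adaptor of Toll-like receptors (0.72 ± 0.19), rose as well. Irf2, which encodes a relative of Irf1, rose by 0.89 ± 0.23 (adjusted p = 0.0296). The negative regulators Tnfaip3 (1.37 ± 0.26) and Trim30a (1.14 ± 0.30) were 2 rises of 8 tested. Of 50 other interferon-stimulated genes, 17 rose and 1 fell. Trim34a (1.96 ± 0.29), Ly6e (1.51 ± 0.24) and Nmi (1.35 ± 0.23) led the rises by adjusted p, and Ifitm2 fell from 130, 133 and 104 CPM to 32.2, 41.6 and 29.1 CPM (-1.83 ± 0.23, adjusted p = 0.00232).

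Transcripts of type I interferons themselves were almost absent. Of 18 genes that encode them, 5 had any count, and all 9 libraries together held 20 counts. Ifng, which encodes interferon gamma, fell on activation by 2.4 ± 0.79 (adjusted p = 0.0426). Siglech, a defining marker of plasmacytoid dendritic cells, which make much type I interferon, had no count in any activated library and 0.264 CPM in resting replicate 4. Of 10 markers of these cells, 6 were tested and 1 rose with TEPP-46, with summed levels of 69.8 to 95.8 CPM in control and 75.1 to 180 CPM in TEPP-46 libraries.

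Several markers of other spleen cells also rose with TEPP-46, where 9.72% of all genes did. Of 15 B cell markers, 13 were tested and 7 rose with TEPP-46. Their summed level was 3318 to 4382 CPM in resting, 467 to 790 CPM in control and 1074 to 2680 CPM in TEPP-46 libraries, highest in TEPP-46 replicate 4. Of 8 platelet and red cell markers, both that were tested rose, from summed levels of 1.44 to 4.91 CPM in control to 16.8, 271 and 84.4 CPM in TEPP-46 libraries. The 8 neutrophil markers summed to 0 to 0.252 CPM in control and to 1.38, 174 and 4.53 CPM in TEPP-46 libraries, with 2 rises among 3 tested and S100a8 at 0 in all activated libraries. Of 15 myeloid markers, 8 were tested and 3 rose, with sums of 119 to 151 CPM in control and 162 to 223 CPM in TEPP-46 libraries. Among 6 plasma cell markers 0 were called, with sums of 657 to 1060 CPM in control and 228 to 571 CPM in TEPP-46 libraries. Dendritic cell markers held 1 rise and 1 fall among 7 tested, and natural killer cell markers 2 rises among 5. The 1 CD8 T cell marker tested was not called. Of 12 T cell markers, 4 rose and none fell, and Cd4 and Cd3e were detected in every library. Replicate 4, where the B cell and platelet sums peak, was the highest TEPP-46 library for 6 of 33 members (18.18%, against 35.05% of all genes). These 6 were Ifnar2, Ifit1bl1, Ifit3 and Apobec3, which rose with TEPP-46, and Oasl2 and Isg20, which were not called. The share covers all members tested and does not describe those that rose. Without replicate 4, 12 members were higher with TEPP-46, but leaving it out does not remove these markers. The B cell sums were 1213 and 1074 CPM in TEPP-46 replicates 1 and 5. The part of these cells in the members' levels was not tested.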

How the data were processed

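RNA from 9 libraries of mouse spleen CD4+ T cells was analysed, 3 in each of 3 groups. The authors deposited 1 table of raw counts, whole numbers for each gene and library. The submitters' processing notes name the build GRCm38 and the tool DESeq2; no aligner, counting program, strand setting or annotation release is given in the sources used here. The 34 members and the lists of related genes and markers were chosen with earlier results of these data known. Of the members, 23 had the identifier version of GENCODE M21.

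Genes were filtered by group with filterByExpr (minimum count 10, minimum total 15), scaled with TMM factors and fitted over all 9 libraries by group alone with the quasi-likelihood functions of edgeR 4.0.16 under R 4.3.3. All tests were two-sided, with Benjamini-Hochberg adjustment over 12536 genes and a threshold of 0.05. There were 6 residual degrees of freedom and a biological coefficient of variation of 0.33. The procedure was tested on simulated data with a smaller spread between samples than in these libraries. That test therefore does not give the rate of missed or false calls here. A floor of 3 counts was 0.603 to 1.26 CPM, and intervals cover counting error only, since no molecular identifiers were used. Members called in any comparison, the receptor and the transcription factors were given by library; up to 4 related genes per role were named in order of adjusted p. A gene that this rule would name is not reported here. Values by library for other members were chosen after they were seen. Shared sequence was measured as 50-base words of GENCODE M21 transcripts, and promoter windows were RefSeq's on GRCm38.p6. Alternatives were DESeq2 1.42.0, limma-voom (limma 3.58.1), RLE and total-count scaling, no filter and a stricter one (5 CPM), a replicate block, only the groups compared, each library left out, and 2 libraries left out together, which was added after seeing the data.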

Additional observations from a re-analysis of the deposited data

How the results depend on the processing

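Across 18 alternatives, 0 of the 29 member differences called by edgeR reversed. DESeq2 called 3057 genes in all with TEPP-46 (2025 by edgeR) and 2090 against resting (1289), with 1 member lower in each. With TEPP-46, total-count scaling and no filter each gave 1 member lower. Against resting, no filter gave 2, Oasl1 and Oas2. Against resting, the replicate block gave 705 genes called, and only the groups compared gave 400 with 3 members higher. Without resting replicate 1 and TEPP-46 replicate 4 together, 13 members were lower on activation, Oas2 included, and 16 were higher with TEPP-46. In that fit 1938 genes were called against resting, and the 1 member lower was Oas2. Leaving out each library in turn gave 2316 to 5194 genes called on activation, 395 to 4407 with TEPP-46 and 426 to 1897 against resting. Members higher ranged from 1 to 3, from 6 to 15 and from 3 to 6, and members lower from 7 to 10, from 0 to 4 and from 0 to 3. The cause was not tested, beyond fewer samples in such fits. Counts of members lower include Oas2 where it entered the fit. Of 9 such settings, it was called lower on activation in 9 and against resting in 8.

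Rises were 60.2% of calls with TEPP-46, 47.6% with limma-voom and 43.8% with total counts, which moved the median log2 fold change of all genes by -0.13 with TEPP-46 and 0.11 on activation. Of 53 member differences called under no setting, 64 of 943 alternative values had the other sign. Among those called under some alternative but not by the original fit, signs changed for Xaf1 on activation (0.033 with limma-voom, and -0.70 to 0.062 with libraries left out), for Isg15 against resting (-2.59 to 0.47 with libraries left out) and for Mx2 with TEPP-46 (-5.08 to 0.44 with libraries left out). Deviations of same-numbered libraries correlated between -0.123 and 0.089, and those of differently numbered libraries between -0.108 and 0.123. With 3 libraries a group, such values cannot decide whether equal numbers mark paired samples. With the replicate block, 11 members rose with TEPP-46. Low depth limits Mx1, Mx2, Rsad2, Oas1a and Oasl1, which lay near the floor of 3 counts in some libraries.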
